A study of Mus musculus with 22 samples.

Results

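Erythroid and haem synthesis genes were followed in RNA from whole mouse lung. The group was a list of 31 genes, taken by gene name, that code for the globin chains, the enzymes of haem synthesis, the iron supply, the red cell membrane and its blood group proteins, red cell enzymes and regulators of late erythroid maturation. Of the 31, 30 had a row among the 54532 genes of the table, and Ahsp was not analysed here. After genes with low counts were removed, 22 of the 30 remained among the 16638 genes tested. The 22 are not all members, and the 8 with low counts are described apart.

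The libraries came from the lungs of 22 young male mice of the C57BL6/j strain, with no other allele named. The mice spent 8 days in hypoxia or in normoxia and received ABT-263 at 50 mg/kg per day or vehicle over the same days. ABT-263 (navitoclax) blocks anti-apoptotic members of the BCL-2 family and serves as a senolytic drug. There were 5 libraries of hypoxia with ABT-263, 6 of hypoxia with vehicle, 6 of normoxia with ABT-263 and 5 of normoxia with vehicle, the control condition. The oxygen level and the route of dosing are not given in the sources used here, and nothing says whether the lungs were flushed of blood.

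Red cells carry haemoglobin, a tetramer of alpha and beta globin chains that each hold a haem group. Haem is built by a chain of enzymes that starts in the mitochondrion with Alas2, the rate-limiting enzyme of erythroid cells, and ends there with Fech, which inserts iron. Reticulocytes, the youngest red cells in blood, have lost the nucleus but still hold globin and other late erythroid mRNA, so a blood-filled organ such as the lung contains erythroid mRNA. In low oxygen the kidney releases erythropoietin, which increases red cell output from the marrow, and in mice also from the spleen.

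The globin genes come as near-identical copies, which bears on how far each copy's value can be trusted. In the coding sequences of GENCODE M21 transcripts, Hba-a1 and Hba-a2 (429 bases) differed at 1 base, C381T, and Hbb-bs and Hbb-bt (444 bases) at 1 base, C417T, where the first letter belongs to the first gene named and positions count from 1 at the start codon. The 41 bases around each of these are shown, with the differing base in capitals.
Hba-a1: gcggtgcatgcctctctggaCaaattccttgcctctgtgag
Hba-a2: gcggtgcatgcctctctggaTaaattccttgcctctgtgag
Hbb-bs: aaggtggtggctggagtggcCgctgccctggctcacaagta
Hbb-bt: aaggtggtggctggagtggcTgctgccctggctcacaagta
Of the 75-base windows in the Hba-a1 transcript, 62.2% also occurred in that of Hba-a2, and 81.0% the other way. Of those in the Hbb-bs transcript 64.3% also occurred in that of Hbb-bt, and 56.6% the other way. The window of 75 bases is a setting of this count, and the read length is not stated here. Reads that lie wholly in shared sequence cannot be placed and were divided between the copies by estimation. The level of each copy is therefore uncertain, whereas the sum of an alpha or a beta pair is not affected by that division. The alpha copies lie on chr11:32283511-32284465 and chr11:32296489-32297298 of GRCm38 (plus strand), with starts 12978 bases apart. The beta copies lie on chr7:103826534-103828096 and chr7:103812524-103813996 (minus strand), with starts 14010 bases apart.

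Promoter sequence from RefSeq (GRCm38.p6, 250 bases before to 50 after the start) was at hand for 23 of the 30 members. The 120 bases before the start are shown for members that carry the main result and for Kel, a member with counts too low for the main test. Capitals mark GATAA (bound by GATA factors), CACCC (bound by the KLF family) and CCAAT (bound by NF-Y) on either strand. A motif on the other strand appears as its reverse complement.
Hba-a1, chr11:32283552-32283671, plus strand: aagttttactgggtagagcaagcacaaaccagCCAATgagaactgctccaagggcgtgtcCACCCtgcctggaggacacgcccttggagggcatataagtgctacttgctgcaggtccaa
Hbb-bs, chr7:103827929-103828048, minus strand: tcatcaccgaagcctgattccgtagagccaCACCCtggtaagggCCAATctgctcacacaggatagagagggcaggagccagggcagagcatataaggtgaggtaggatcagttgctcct
Hbb-bt, chr7:103813924-103814043, minus strand: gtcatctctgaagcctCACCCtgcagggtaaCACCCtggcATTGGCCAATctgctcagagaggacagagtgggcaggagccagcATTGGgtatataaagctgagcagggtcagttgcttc
Alas2, chrX:150547297-150547416, plus strand: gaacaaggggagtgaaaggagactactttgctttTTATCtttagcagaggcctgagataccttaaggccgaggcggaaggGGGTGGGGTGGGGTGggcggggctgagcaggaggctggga
Trim10, chr17:36869454-36869573, plus strand: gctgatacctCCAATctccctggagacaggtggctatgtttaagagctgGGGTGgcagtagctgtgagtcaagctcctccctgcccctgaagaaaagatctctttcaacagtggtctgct
Bpgm, chr6:34476236-34476355, plus strand: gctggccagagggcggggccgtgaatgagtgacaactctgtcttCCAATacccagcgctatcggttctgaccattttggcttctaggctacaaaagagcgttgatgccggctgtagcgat
Kel, chr6:41704326-41704445, minus strand: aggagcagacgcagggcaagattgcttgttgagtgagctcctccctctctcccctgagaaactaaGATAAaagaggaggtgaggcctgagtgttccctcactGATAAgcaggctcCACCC
The alpha copies were identical over the 297 promoter bases that could be aligned. Each of the 3 globin promoters shown holds a CACCC and a CCAAT upstream of an A and T rich stretch near the start. Alas2 holds a GATAA 86 bases before its start on the minus strand and a run of CACCC repeats closer in, and Bpgm holds neither GATAA nor CACCC in these bases.

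Library totals ran from 11509007 to 15744193 counts. In 3 libraries, replicate 1 of hypoxia with ABT-263, of hypoxia with vehicle and of normoxia with ABT-263, the treatment in the title was not the one in the treatment tag. The title was used for grouping. Without these 3 libraries 11 members passed the test for hypoxia with vehicle and 13 for hypoxia with ABT-263, against 10 and 13 with them. Normoxia with ABT-263 replicate 2 stood apart by skeletal muscle transcripts and is taken up with Ank1 and Sptb. Lung markers were high in every group, for example Sftpc, the surfactant gene of type 2 alveolar cells, at 27200 ± 2950 CPM in hypoxia with ABT-263, 27600 ± 3650 in hypoxia with vehicle, 25900 ± 2080 in normoxia with ABT-263 and 25300 ± 3140 in normoxia with vehicle (SD, n = 5, 6, 6 and 5). In the same order of groups, the lung marker Ager averaged 2000, 2030, 2040 and 2070 CPM. The lung marker Scgb1a1 averaged 40900, 53400, 69800 and 74400 CPM, lower in hypoxia. CPM are counts scaled to a common library size, with TMM factors.

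The first question was what 8 days of hypoxia did to these genes in lungs of vehicle-treated mice and of mice given ABT-263. All 4 globin genes, Alas2 and Fech, the anion exchanger Slc4a1 and its partner Epb42, the enzyme Bpgm and the erythroid ubiquitin ligase Trim10 rose under both treatments. The rises ran from 1.34-fold for Fech to 4.02-fold for Trim10 with vehicle, and from 1.43-fold for the same Fech to 5.35-fold for Trim10 with ABT-263. The middle enzymes of haem synthesis, the iron importers and most of the membrane skeleton did not pass the test upwards under either treatment, and Alad and Sptb fell with ABT-263. In whole-lung RNA, more cells of a type and more RNA per cell cannot be told apart.

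With vehicle, 10 of 22 tested members were higher and 0 lower at an adjusted p under 0.05 (edgeR's quasi-likelihood test, Benjamini-Hochberg over all genes tested). Over all genes tested, 26.3% were called in that comparison, 13.5% higher and 12.8% lower. With ABT-263, 11 members were higher and 2 lower, while 39.2% of all genes were called, 17.9% higher and 21.3% lower. The median log2 fold change over the tested members was 0.30 with vehicle and 0.46 with ABT-263, where the medians of all genes were 0 and −0.02. All 10 members that rose with vehicle also rose with ABT-263, and Car2 (higher), Alad and Sptb (lower) passed only with ABT-263. Those 2 hypoxia comparisons share no library.

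The same 10 members had every hypoxia vehicle library above every normoxia vehicle library, which held for 7.02% of all genes, and none had every hypoxia library below, which held for 6.96%. With ABT-263, 11 members had every hypoxia library above (8.47% of all genes) and 2 every hypoxia library below (9.09% of all genes). Over both treatments, 7 members (Alas2, Hba-a1, Hba-a2, Hbb-bs, Hbb-bt, Slc4a1 and Trim10) had all 11 hypoxia libraries above all 11 normoxia libraries, as had 3.35% of all genes.

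The globin chains were the highest of the members per length in every group. In hypoxia with ABT-263, Hbb-bs averaged 9220 CPM per kilobase of exon, Alas2 90.5, Car2 47.0 and Trim10 2.17 (n = 5). In normoxia with vehicle, Hbb-bs averaged 3740 CPM per kilobase, Hba-a1 1060, Hba-a2 780 and Hbb-bt 660 (n = 5). The members next in order there were Car2 at 41.9 and Alas2 at 36.8 CPM per kilobase, and Trim10 stood at 0.462.

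Hbb-bs, an adult beta chain, had 5410, 8190, 7140, 5390 and 9290 CPM in hypoxia with ABT-263. In hypoxia with vehicle it ran from 6290 to 8840 CPM with a median of 7430. In normoxia it ran from 2060 to 4260 CPM with a median of 2760 with ABT-263 and was 3750, 2310, 2960, 2670 and 2650 CPM with vehicle. The lowest hypoxia library stood above the highest normoxia library, and the hypoxia groups overlapped widely with each other. The log2 fold change of hypoxia against normoxia was 1.30 ± 0.17 (SE) with ABT-263 (adjusted p = 2.81e-06) and 1.41 ± 0.18 with vehicle (adjusted p = 2.79e-06).

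Hbb-bt, the other adult beta chain, lay at 979, 1380, 1270, 1050 and 1750 CPM in hypoxia with ABT-263 and from 999 to 1510 CPM (median 1280) in hypoxia with vehicle. Normoxia libraries had 340 to 720 CPM (median 436) with ABT-263 and 554, 393, 473, 442 and 458 CPM with vehicle. Again no normoxia library reached a hypoxia library. Its log2 fold change was 1.47 ± 0.17 under each treatment (adjusted p = 6.93e-07 with ABT-263 and 1.79e-06 with vehicle).

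The alpha chains rose with smaller fold changes. Hba-a1 had 1400, 1650, 1470, 1580 and 2200 CPM in hypoxia with ABT-263 and 1150 to 2060 CPM (median 1700) in hypoxia with vehicle. It had 644 to 1110 CPM (median 900) in normoxia with ABT-263 and 966, 812, 861, 780 and 884 CPM in normoxia with vehicle. The gap between the lowest hypoxia library, replicate 1 with vehicle, and the highest normoxia library, replicate 2 with ABT-263, was small. The log2 fold change was 0.93 ± 0.14 with ABT-263 (adjusted p = 1.39e-05) and 0.99 ± 0.14 with vehicle (adjusted p = 1.69e-05). Hba-a2 averaged 988 ± 190 CPM in hypoxia with ABT-263, 1010 ± 180 in hypoxia with vehicle, 527 ± 95.6 in normoxia with ABT-263 and 520 ± 47.0 in normoxia with vehicle (SD), and its log2 fold change was 0.91 ± 0.14 (SE) with ABT-263 and 0.96 ± 0.14 with vehicle.

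Together the 4 globin genes took 1.10% ± 0.231 of all counts in hypoxia with ABT-263 and 1.15% ± 0.131 in hypoxia with vehicle. In normoxia they took 0.474% ± 0.127 with ABT-263 and 0.473% ± 0.0602 with vehicle (SD). The 11 hypoxia libraries lay between 0.880% and 1.44% and the 11 normoxia libraries between 0.343% and 0.698%, so the oxygen groups were apart and the treatments were not.

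The ratio of beta to alpha counts, which is free of how reads were divided between copies, was 3.16 ± 0.477 in hypoxia with ABT-263 and 3.35 ± 0.606 in hypoxia with vehicle, against 2.37 ± 0.276 in normoxia with ABT-263 and 2.40 ± 0.277 in normoxia with vehicle (SD). The ranges met: hypoxia libraries ran from 2.55 to 3.96 and normoxia libraries from 2.06 to 2.80. Ratios within a pair rest on how reads were divided. Hba-a1 had 1.60 to 1.74 counts for each count of Hba-a2 over all libraries, and Hbb-bs 5.15 to 6.77 for each count of Hbb-bt. The beta pair ratio with ABT-263 was 5.51 ± 0.305 in hypoxia and 6.24 ± 0.225 in normoxia (SD). With vehicle it was 5.92 ± 0.209 in hypoxia and 6.15 ± 0.389 in normoxia (SD). The oxygen groups overlapped within each treatment, narrowly with ABT-263.

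**Figure D1:**
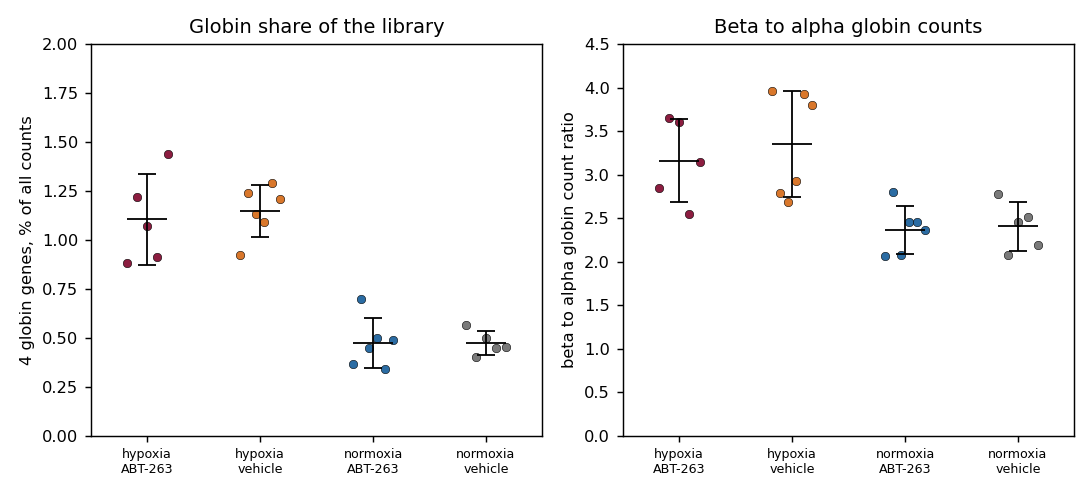
Share of all counts in the 4 globin genes (left, percent) and ratio of beta to alpha globin counts (right) in each library, by group; points are libraries, lines and bars the mean and SD. The hypoxia libraries hold between 0.880% and 1.44% globin counts, above all normoxia libraries, while the beta to alpha ratios of the oxygen groups meet at 2.55 to 2.80.

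Of the 5 enzymes of haem synthesis, the first enzyme of the erythroid pathway and the last rose, and none of those between passed the test upwards. Alas2, the rate-limiting enzyme, had 151, 207, 203, 215 and 311 CPM in hypoxia with ABT-263 and 121 to 233 CPM (median 207) in hypoxia with vehicle. In normoxia it had 63.6 to 112 CPM (median 90.6) with ABT-263 and 85.4, 86.5, 89.1, 89.0 and 92.4 CPM with vehicle. The normoxia vehicle libraries were the closest together, with an SD of 2.71 CPM, and no library crossed between the oxygen groups. Alas2 rose by 1.30 ± 0.17 log2 units with ABT-263 (adjusted p = 5.15e-06) and 1.13 ± 0.17 with vehicle (adjusted p = 6.46e-05). Set against the globins, Alas2 had 19.8 ± 2.92 counts per 1000 globin counts in hypoxia with ABT-263, 16.6 ± 2.94 in hypoxia with vehicle, 18.7 ± 1.29 in normoxia with ABT-263 and 19.1 ± 2.76 in normoxia with vehicle (SD), values that overlapped.

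Fech, which places iron in the porphyrin ring, had 68.9, 80.2, 81.3, 75.7 and 91.4 CPM in hypoxia with ABT-263 and 61.9 to 83.3 CPM (median 75.4) in hypoxia with vehicle. It had 51.9 to 62.6 CPM (median 52.8) in normoxia with ABT-263 and 55.5, 53.9, 55.2, 54.6 and 57.3 CPM in normoxia with vehicle. The groups did not overlap within either treatment, but 1 hypoxia vehicle library lay below the highest normoxia ABT-263 library. The rise was 0.52 ± 0.08 log2 units with ABT-263 (adjusted p = 1.81e-05) and 0.42 ± 0.08 with vehicle (adjusted p = 0.000355).

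Alad, the second enzyme of the pathway and active in most cell types, fell with ABT-263. It had 42.8, 40.2, 43.4, 39.2 and 33.9 CPM in hypoxia and 43.9 to 52.2 CPM (median 50.4) in normoxia with ABT-263, groups that were apart by a narrow margin, and the log2 fold change was −0.31 ± 0.09 (adjusted p = 0.00849). With vehicle it had 37.1 to 52.3 CPM in hypoxia and 42.9 to 57.7 in normoxia, overlapping groups with a log2 fold change of −0.08 ± 0.09 (adjusted p = 0.528). The difference between the treatments was −0.23 ± 0.13 (adjusted p = 0.612). Urod and Cpox, which act in the middle of the pathway, passed in neither comparison, with log2 fold changes for Urod of 0.01 ± 0.08 with ABT-263 and 0.07 ± 0.07 with vehicle, and for Cpox of −0.11 ± 0.12 under each.

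Neither gene of iron supply that could be tested passed. Tfrc, the transferrin receptor, averaged 122 ± 9.38 CPM in hypoxia with ABT-263, 118 ± 16.1 in hypoxia with vehicle, 122 ± 20.7 in normoxia with ABT-263 and 104 ± 13.9 in normoxia with vehicle (SD). Its log2 fold changes were 0 ± 0.11 with ABT-263 and 0.18 ± 0.11 with vehicle. Slc25a37 (mitoferrin), the importer of iron into mitochondria, had log2 fold changes of 0.10 ± 0.08 with ABT-263 and 0.06 ± 0.08 with vehicle. Both genes are also used by cells that make no haemoglobin.

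Among the 5 genes of the red cell membrane skeleton and the anion exchanger complex, Slc4a1 and Epb42 rose under both treatments. Slc4a1, the anion exchanger of the red cell membrane, had 6.92, 9.04, 14.5, 10.9 and 17.3 CPM in hypoxia with ABT-263 and 5.46 to 11.8 CPM (median 10.5) in hypoxia with vehicle. In normoxia it had 1.07 to 4.40 CPM (median 2.56) with ABT-263 and 1.10, 2.70, 1.79, 4.86 and 3.18 CPM with vehicle. All hypoxia libraries were above all normoxia libraries, with replicate 1 of hypoxia with vehicle closest to them. The log2 fold change was 2.16 ± 0.31 with ABT-263 (adjusted p = 1.58e-05) and 1.87 ± 0.32 with vehicle (adjusted p = 0.000203).

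Epb42, which ties the anion exchanger to the skeleton, was low, with 1.15, 0.869, 1.88, 1.56 and 2.64 CPM in hypoxia with ABT-263 and 0.664 to 1.87 CPM (median 1.45) in hypoxia with vehicle. It had 0.0679 to 0.721 CPM (median 0.296) in normoxia with ABT-263 and 0.343, 0.449, 0.643, 0.228 and 0.265 CPM in normoxia with vehicle. The groups were apart within each treatment. Its log2 fold change was 2.30 ± 0.39 with ABT-263 (adjusted p = 6.89e-05) and 1.80 ± 0.40 with vehicle (adjusted p = 0.00159). Epb41, a skeleton protein made in many cell types, passed in neither comparison (−0.19 ± 0.10 with ABT-263 and −0.08 ± 0.10 with vehicle).

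Sptb and Ank1 code for beta spectrin and ankyrin of the skeleton, and both are also known from muscle. Sptb had 4.69, 2.43, 2.78, 2.76 and 3.88 CPM in hypoxia with ABT-263 and 3.32 to 6.43 CPM (median 4.63) in hypoxia with vehicle. In normoxia it had 6.42, 12.5, 6.18, 4.90, 5.34 and 4.92 CPM with ABT-263 and 6.51, 5.69, 7.14, 4.55 and 8.09 CPM with vehicle. With ABT-263 the hypoxia libraries lay below the normoxia libraries, and with vehicle they overlapped. The fitted log2 fold change was −1.01 ± 0.24 with ABT-263 (adjusted p = 0.0015) and −0.44 ± 0.22 with vehicle (adjusted p = 0.150), and the difference between treatments was −0.57 ± 0.32 (adjusted p = 0.620).

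The highest Sptb value, 12.5 CPM, came from replicate 2 of normoxia with ABT-263, which also had the highest Ank1 value, 26.5 CPM against 9.37 to 11.5 in the other 5 libraries of its group. In that library a list of 8 skeletal muscle genes (Acta1, Myh1, Myh4, Mylpf, Tnnt3, Ckm, Pvalb and Tnnc2), chosen after these values were seen, summed to 3000 CPM, against 27.8 to 37.1 in the rest of its group. Without it, Sptb stood at −0.73 ± 0.19 with ABT-263 (adjusted p = 0.00354) and Ank1 at 0.08 ± 0.13, against −0.25 ± 0.21 with it, and neither Ank1 value passed the test. A list of 8 cardiac muscle genes, also chosen afterwards, had a median sum of 802 CPM in hypoxia with ABT-263, 1020 in hypoxia with vehicle, 1160 in normoxia with ABT-263 and 1280 in normoxia with vehicle. The part of heart tissue in the fall of Sptb was not tested.

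**Figure D2:**
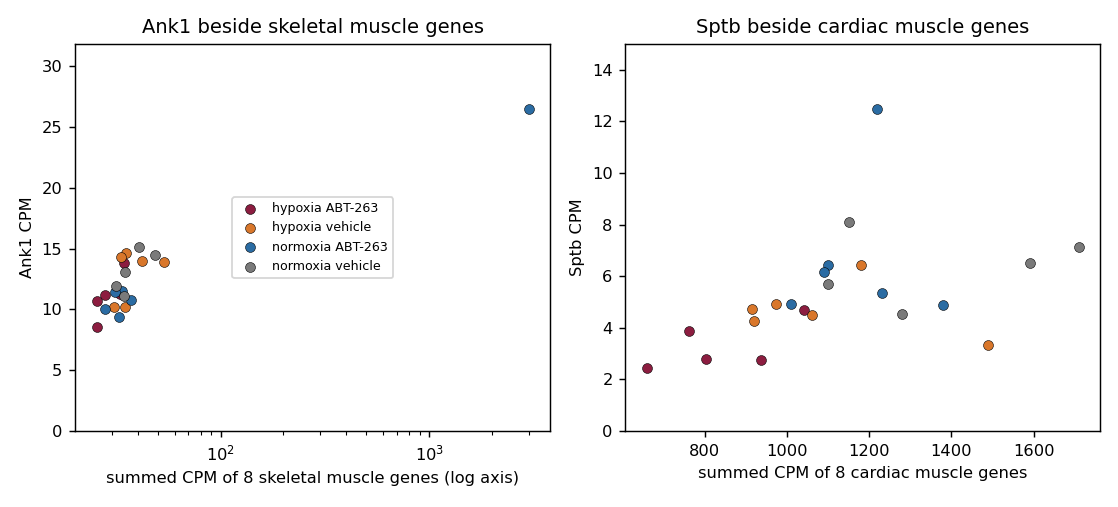
Ank1 against the summed CPM of 8 skeletal muscle genes (left, log axis) and Sptb against the summed CPM of 8 cardiac muscle genes (right), 1 point per library, coloured by group. Replicate 2 of normoxia with ABT-263 stands alone at 3000 CPM of skeletal muscle genes with the highest Ank1 (26.5 CPM) and Sptb (12.5 CPM).

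Trim10, a RING finger protein of terminal erythroid differentiation in the mouse, had the largest fold change of the tested members under both treatments. It had 3.25, 4, 6.79, 4.24 and 6.03 CPM in hypoxia with ABT-263 and 1.84 to 5.87 CPM (median 4.27) in hypoxia with vehicle. It had 0.272 to 1.60 CPM (median 0.857) in normoxia with ABT-263 and 0.548, 1.05, 0.786, 1.21 and 1.59 CPM in normoxia with vehicle. No normoxia library reached the hypoxia libraries, although replicate 1 of hypoxia with vehicle came close. Its log2 fold change was 2.42 ± 0.34 with ABT-263 (adjusted p = 7.19e-06) and 2.01 ± 0.35 with vehicle (adjusted p = 0.00015). Xpo7, a nuclear exporter that takes part in nuclear condensation of mouse erythroblasts, and Mkrn1, a ubiquitin ligase, are made in many cell types and passed in neither hypoxia comparison. The log2 fold change of Xpo7 was −0.13 ± 0.06 with ABT-263 and 0 ± 0.06 with vehicle, and that of Mkrn1 0.07 ± 0.09 with ABT-263 and 0.18 ± 0.09 with vehicle.

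Ermap, an immunoglobulin-like blood group protein, was the only blood group gene with counts enough to test. Its log2 fold change was 0.77 ± 0.45 with ABT-263 (adjusted p = 0.180) and 0.82 ± 0.46 with vehicle (adjusted p = 0.200). Levels averaged 0.810 ± 0.355 CPM in hypoxia with ABT-263, 0.727 ± 0.334 in hypoxia with vehicle, 0.462 ± 0.363 in normoxia with ABT-263 and 0.415 ± 0.251 in normoxia with vehicle (SD), and the groups overlapped.

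Bpgm makes bisphosphoglycerate, which lowers the oxygen affinity of haemoglobin. It had 144, 170, 158, 175 and 218 CPM in hypoxia with ABT-263 and 121 to 186 CPM (median 165) in hypoxia with vehicle. Normoxia libraries had 88.6 to 125 CPM (median 102) with ABT-263 and 101, 107, 97.2, 102 and 103 CPM with vehicle. Groups were apart within each treatment. The log2 change was 0.74 ± 0.11 with ABT-263 (adjusted p = 9.81e-06) and 0.66 ± 0.11 with vehicle (adjusted p = 8.88e-05).

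Car2, a carbonic anhydrase of red cells and of many tissues, rose in hypoxia with ABT-263 and not with vehicle. With ABT-263 it had 105, 107, 122, 107 and 127 CPM in hypoxia and 79.4 to 97.5 CPM (median 84.1) in normoxia, without overlap. With vehicle it had 90.9 to 105 CPM (median 98.7) in hypoxia and 99.3, 105, 88.1, 108 and 106 CPM in normoxia, which overlapped. On the log2 scale the change was 0.39 ± 0.07 with ABT-263 (adjusted p = 0.000152) and −0.04 ± 0.07 with vehicle (adjusted p = 0.744). The difference between these was 0.43 ± 0.10 (SE; adjusted p = 0.286 by edgeR) and did not pass. DESeq2 called this difference, among 17 genes it called over the whole table, and limma-voom did not.

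**Figure D3:**
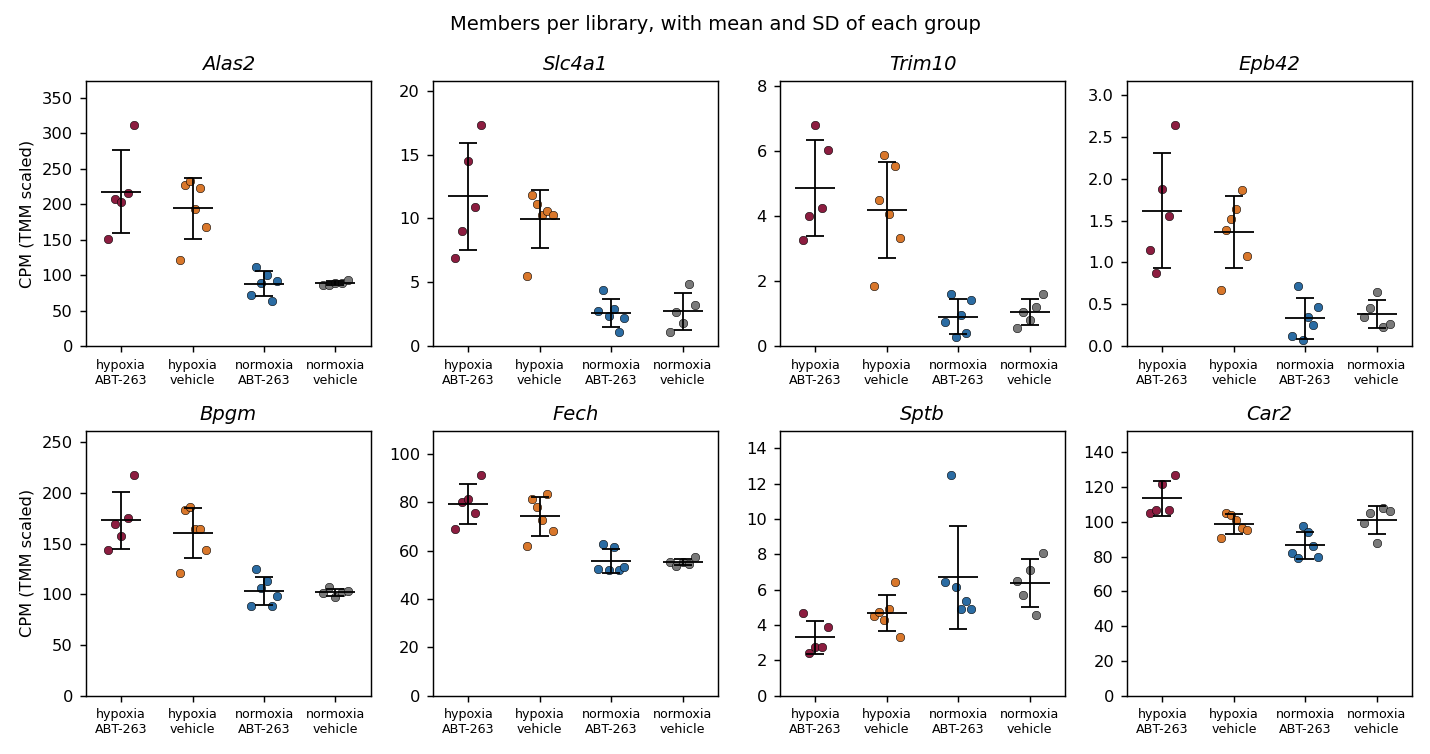
CPM in each library of 8 members that changed in at least 1 hypoxia comparison, by group, with the mean and SD; each panel starts at 0. Alas2, Slc4a1 and Trim10 are higher in all hypoxia libraries, Sptb has 1 normoxia ABT-263 library at 12.5 CPM, and Car2 is highest in hypoxia with ABT-263.

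**Figure D4:**
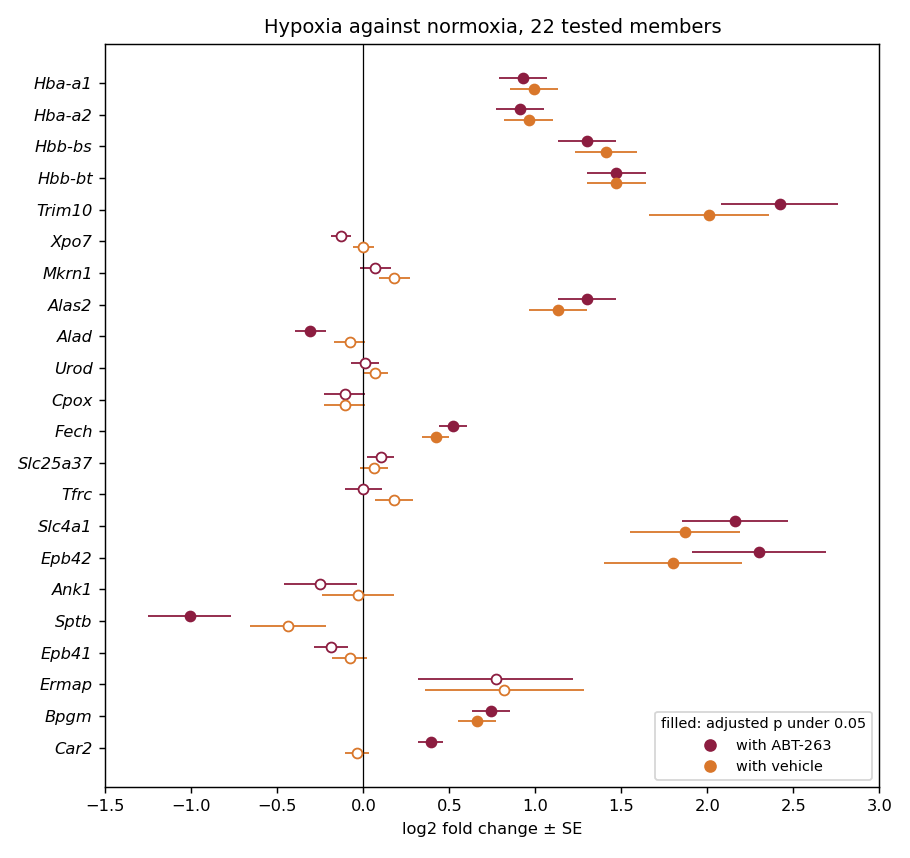
Log2 fold change of hypoxia against normoxia with its SE for the 22 tested members, with ABT-263 and with vehicle; filled points have an adjusted p under 0.05. The 10 members filled under both treatments lie between 0.42 and 2.42, and Car2, Alad and Sptb are filled with ABT-263 only.

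In some groups the same library was at the edge for most of the 10 members that rose under both treatments, and in others not. In hypoxia with ABT-263, replicate 5 was the highest for 9 of the 10 and replicate 1 the lowest for 8. In hypoxia with vehicle, replicate 1 was the lowest for all 10, while the highest place was split between 3 libraries, with 4, 3 and 3 members. Replicate 1 of each hypoxia group is a library whose tag names the other treatment. So is replicate 1 of normoxia with ABT-263, which was the lowest for 1 of the 10. In normoxia with ABT-263, replicate 2 was the highest for all 10, and replicate 5 the lowest for 6. No library of normoxia with vehicle was highest for more than 4 or lowest for more than 3. Replicate 2 of normoxia with ABT-263 is also the library with skeletal muscle transcripts.

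The second question was whether ABT-263 changed these genes, in either oxygen condition. None of the 22 tested members passed in any of the 4 tests by edgeR's quasi-likelihood test. In hypoxia 0 were called where 0.301% of all genes were, and 2 (Car2 and Sptb) had an unadjusted p under 0.05. In normoxia 0 were called where 0.535% of all genes were, and 2 (Car2 and Xpo7) had such a p. Averaged over oxygen conditions 0 were called where 2.54% of all genes were (1.23% higher and 1.31% lower), with such a p for Cpox, and for the interaction 0 were called where 0% of all genes were, with such a p for Car2. DESeq2 called 0 members in each of the first 3 tests and 1 in the interaction, and limma-voom 0 in all.

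For the globins the differences between treatments were small against their errors. The log2 fold change of ABT-263 against vehicle for Hbb-bs was −0.10 ± 0.17 in hypoxia and 0 ± 0.17 in normoxia, and for Hba-a1 it was −0.04 ± 0.14 in hypoxia and 0.01 ± 0.14 in normoxia. Alas2 stood at 0.17 ± 0.17 in hypoxia and −0.01 ± 0.17 in normoxia. The errors of the low genes were larger: Slc4a1 stood at 0.24 ± 0.28 in hypoxia and −0.06 ± 0.34 in normoxia, and Epb42 at 0.24 ± 0.33 in hypoxia and −0.25 ± 0.48 in normoxia. The interactions of Slc4a1, Epb42 and Trim10 were 0.29 ± 0.45, 0.50 ± 0.58 and 0.41 ± 0.49.

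Car2 had log2 fold changes of opposite sign, 0.20 ± 0.07 in hypoxia (adjusted p = 0.209) and −0.23 ± 0.07 in normoxia (adjusted p = 0.148), neither past the threshold. It was the only member with every hypoxia ABT-263 library above every hypoxia vehicle library, which held for 1.26% of all genes. Xpo7 was the only member with every normoxia ABT-263 library (57.7 to 63.4 CPM) above every normoxia vehicle library (49.8 to 57.5 CPM), as for 1.09% of all genes, and its log2 fold change was 0.15 ± 0.06 (adjusted p = 0.282).

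**Figure D5:**
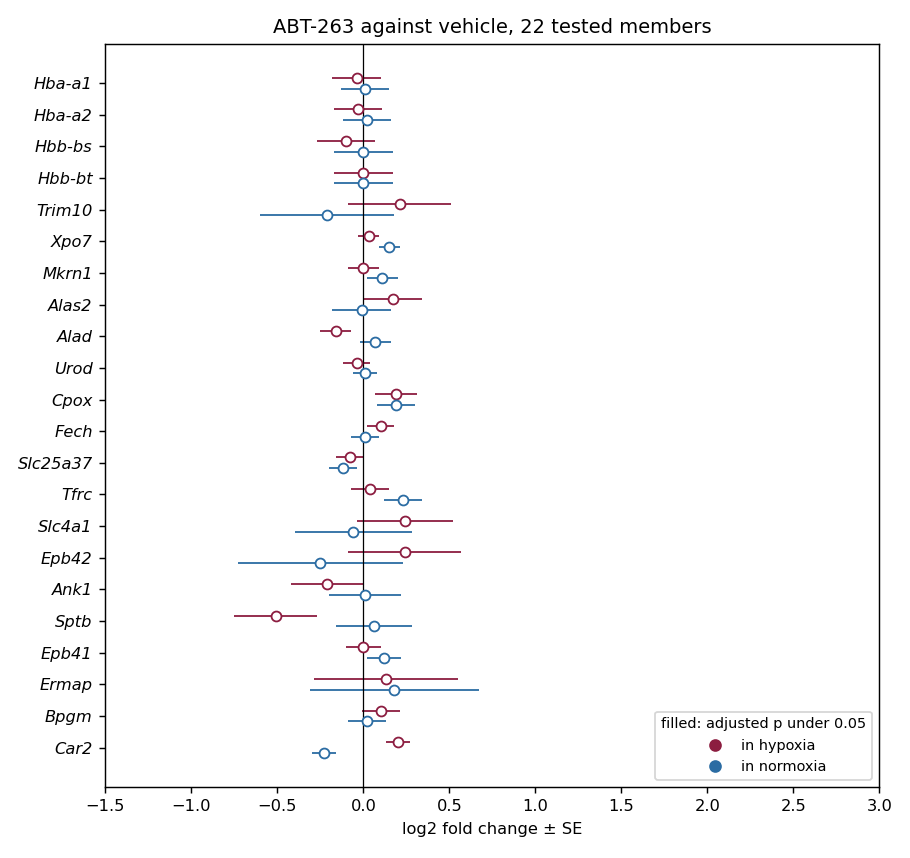
Log2 fold change of ABT-263 against vehicle with its SE for the 22 tested members, in hypoxia and in normoxia, on the same axis as the plot of hypoxia. No point is filled, and the values lie between −0.51 (Sptb in hypoxia) and 0.24.

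The 8 members too low to test were Tspo2, Rhd, Klf1, Hemgn, Rhag, Kel, Trim58 and Car1, with at most 11 counts in any library. Rhd, a blood group protein of the Rh family, had 5, 8, 8, 3 and 11 counts in hypoxia with ABT-263, 3 to 6 in hypoxia with vehicle, 0 to 4 in normoxia with ABT-263 and 0 to 3 in normoxia with vehicle. Rhag, its partner in the membrane, had 1 to 8 counts in hypoxia with ABT-263, 1 to 9 in hypoxia with vehicle, 0 to 2 in normoxia with ABT-263 and 0 to 3 in normoxia with vehicle. Kel, a blood group endopeptidase, had 1 to 9 counts in hypoxia with ABT-263, 3 to 6 in hypoxia with vehicle and 0 to 3 in each normoxia group. With the filter on low counts dropped, Rhd and Kel were higher in hypoxia with ABT-263 (log2 fold change 1.62 ± 0.51, adjusted p = 0.0197, and 1.99 ± 0.65, adjusted p = 0.0251) and Rhag in hypoxia with vehicle (2.16 ± 0.71, adjusted p = 0.0374).

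Klf1, the transcription factor that activates the adult beta globin gene in the marrow, had 0 to 3 counts in hypoxia with ABT-263, 0 to 6 in hypoxia with vehicle, 2 to 4 in normoxia with ABT-263 and 1 to 4 in normoxia with vehicle. Hemgn, a nuclear protein of blood-forming cells, had 0 to 8 counts, Tspo2, an erythroid membrane protein, 0 to 6, and Trim58, a ubiquitin ligase of enucleation in mouse erythroblasts, 0 to 4. Car1, the other carbonic anhydrase of the list, had 5 counts in all 22 libraries. None of these 5 passed in either hypoxia comparison with the filter dropped, and no difference was detectable at this depth.

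Other genes of the erythroid programme were counted in lists with no member in them. Over all genes tested, 17.9% rose and 21.3% fell in hypoxia with ABT-263, and 13.5% rose and 12.8% fell with vehicle. Each list below is to be read beside these shares. Of 12 other red cell membrane genes 10 were tested, and 3 rose and 1 fell in hypoxia with ABT-263, 1 rose and 1 fell with vehicle. In either direction, 39.2% of all genes were called with ABT-263 and 26.3% with vehicle, and this list was near those shares.

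Of 14 other reticulocyte genes 12 were tested, and 5 rose and 2 fell with ABT-263, 4 rose and 0 fell with vehicle. Ube2l6, a conjugating enzyme that is also an interferon target, rose by 0.91 ± 0.10 log2 units with ABT-263 and 0.75 ± 0.10 with vehicle. Bnip3l, which clears mitochondria from reticulocytes, rose by 0.55 ± 0.07 with ABT-263 and 0.46 ± 0.07 with vehicle. Prdx2, a peroxide scavenger of red cells, rose by 0.43 ± 0.10 with ABT-263 and 0.35 ± 0.10 with vehicle. In normoxia with vehicle, Bnip3l averaged 44.7 and Prdx2 70.6 CPM per kilobase, above Alas2 at 36.8. Which cells of the lung held these transcripts was not tested. The 2 that fell with ABT-263 were Tent5c (−0.40 ± 0.13) and Fbxo7 (−0.29 ± 0.07), and neither passed with vehicle. The median log2 fold change of the 12 was 0.04 with ABT-263 and 0.15 with vehicle.

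Of 14 other genes of haem synthesis and mitochondrial carriers, all tested, 4 rose and 2 fell with ABT-263 and 3 rose with vehicle. These calls were near the shares of all genes called in either direction, 39.2% with ABT-263 and 26.3% with vehicle. Tmem14c, which serves porphyrin transport in mitochondria, rose by 0.48 ± 0.10 log2 units with ABT-263 and 0.37 ± 0.10 with vehicle, and Glrx5, of iron-sulphur cluster assembly, by 0.32 ± 0.10 with ABT-263 and 0.41 ± 0.10 with vehicle. Alas1, the housekeeping counterpart of Alas2, fell with ABT-263 (−0.56 ± 0.16, adjusted p = 0.0101).

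The erythroid regulators and receptors ran the other way: of 12 tested, 2 rose and 8 fell with ABT-263, and 0 rose and 5 fell with vehicle. The 5 that fell with vehicle were Bcl11a (−1.02 ± 0.17), Nfe2 (−0.61 ± 0.14), Epor (−0.45 ± 0.16), Lyl1 (−0.41 ± 0.14) and Zbtb7a (−0.39 ± 0.10), and all 5 also fell with ABT-263. Epor, the erythropoietin receptor, averaged 3.32 ± 0.862 CPM in hypoxia with ABT-263, 4.19 ± 0.753 in hypoxia with vehicle, 4.86 ± 0.489 in normoxia with ABT-263 and 5.73 ± 1.03 in normoxia with vehicle (SD). Epo itself had 0 counts in every library. Gata1, the master regulator of erythroid and megakaryocyte cells, fell with ABT-263 (−1.30 ± 0.30, adjusted p = 0.00147) and was −0.61 ± 0.30 with vehicle (adjusted p = 0.131). Tal1 (0.40 ± 0.10) and Lmo2 (0.23 ± 0.09), which are also endothelial, rose with ABT-263. Several of these genes act in other blood cells: Bcl11a in B cells, Nfe2 and Gata1 in megakaryocytes.

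Of 6 other globin genes none could be tested. Hbq1b, a theta-like globin, had 6 to 10 counts in hypoxia with ABT-263, 5 to 10 in hypoxia with vehicle, 0 to 4 in normoxia with ABT-263 and 2 to 7 in normoxia with vehicle. The embryonic Hbb-bh1 had 0 counts in all libraries, and the embryonic Hbb-y at most 5 in any. Of 21 tested genes of haem breakdown and iron handling, 4 rose and 4 fell with ABT-263 and 3 rose and 2 fell with vehicle. That too was near the shares of all genes called, 39.2% with ABT-263 and 26.3% with vehicle. Hamp, the iron hormone hepcidin, fell by 1.28 ± 0.24 log2 units with ABT-263 (adjusted p = 0.000226) and by 1.68 ± 0.24 with vehicle (adjusted p = 2.01e-05). Hamp is also made in the heart. The cardiac gene sums given with Sptb had lower medians in hypoxia, but their ranges overlapped within each treatment. With ABT-263 they were 659 to 1040 CPM in hypoxia and 1010 to 1380 in normoxia. With vehicle they were 915 to 1490 CPM in hypoxia and 1100 to 1710 in normoxia. The part of heart tissue in the fall of Hamp was not tested. Blvra, which turns biliverdin into bilirubin, rose by 0.49 ± 0.10 log2 units with ABT-263 and 0.36 ± 0.10 with vehicle. Hmox1, the enzyme that opens the haem ring, passed in neither (−0.06 ± 0.12 with ABT-263 and −0.16 ± 0.12 with vehicle).

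Markers of other cells were counted the same way. Of all genes tested, 17.9% rose and 21.3% fell in hypoxia with ABT-263, and 13.5% rose and 12.8% fell with vehicle. Alveolar macrophage genes moved in the direction of the globins: of 8, 6 rose and 1 fell in hypoxia with ABT-263, and 5 rose and 1 fell with vehicle. Their median log2 fold change was 0.60 with ABT-263 and 0.48 with vehicle. They summed to 733 to 883 CPM in hypoxia with ABT-263, 658 to 861 in hypoxia with vehicle, 522 to 705 in normoxia with ABT-263 and 462 to 626 in normoxia with vehicle, so the oxygen groups did not overlap within either treatment. Of 8 genes of red pulp type and interstitial macrophages, 2 rose with ABT-263, and 1 rose and 1 fell with vehicle. Of 14 platelet and megakaryocyte genes, 12 fell in hypoxia with ABT-263 and 8 with vehicle, and none rose. Their summed level was 89.0 to 132 CPM in hypoxia with ABT-263, 85.0 to 124 in hypoxia with vehicle, 166 to 295 in normoxia with ABT-263 and 121 to 213 in normoxia with vehicle. All 8 B cell genes fell under both treatments, with sums of 118 to 155 CPM in hypoxia with ABT-263, 212 to 294 in hypoxia with vehicle, 234 to 326 in normoxia with ABT-263 and 322 to 566 in normoxia with vehicle. Of 8 T cell genes 3 fell with ABT-263 and 6 with vehicle, and none rose. Of 11 tested neutrophil genes 4 fell with ABT-263, and 1 rose and 4 fell with vehicle. Of 4 tested mast cell and basophil genes 1 fell under each treatment, and of 8 genes of lung epithelium 4 fell with ABT-263, while 1 rose and 3 fell with vehicle.

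Of 15 cell cycle genes, edgeR called 0 in either hypoxia comparison, with an unadjusted p under 0.05 for 2 with ABT-263 and 0 with vehicle. DESeq2 called 1 and limma-voom 6 with ABT-263, and both called 0 with vehicle. Their median log2 fold change was 0.41 with ABT-263 and 0.57 with vehicle. Their sums were 135 to 352 CPM in hypoxia with ABT-263, 71.4 to 113 in hypoxia with vehicle, 44.3 to 356 in normoxia with ABT-263 and 49.5 to 88.0 in normoxia with vehicle. For ABT-263 against vehicle, averaged over oxygen, edgeR called 6 of the 15 higher, DESeq2 called 14 and limma-voom 1. By edgeR, 1.23% of all genes were higher in that comparison. Of 8 endothelial genes 2 rose and 2 fell with ABT-263 and 2 rose and 4 fell with vehicle, with sums of 2610 to 3310 CPM in hypoxia with ABT-263, 2420 to 2980 in hypoxia with vehicle, 2340 to 3270 in normoxia with ABT-263 and 2610 to 3260 in normoxia with vehicle. No listed gene of these marker sets was at 0 in every library of a group. The part of changes in cell makeup in the erythroid rise was not tested.

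The promoters were compared with all 32851 RefSeq promoters of the same length, with motifs searched on both strands. GATAA occurred in 25.4% of all promoters and in 15 of the 23 members with a promoter at hand. Among them were 7 of the 8 members higher in hypoxia with vehicle, the exception being Bpgm. Of the 8 tested members that were not called, 2 held it. The alpha copies, with identical promoters over 297 aligned bases, were counted separately. Others of the 23 were too low to test, among them Kel and Rhag, which also hold GATAA. A link of GATAA to the hypoxia rise was not tested. CACCC occurred in 57.5% of all promoters and in 17 of 23 members, CCAAT in 37.4% and 15 of 23, and TATAAA in 13.6% and 5 of 23. CANNTG, the E-box, occurred in 72.3% of all promoters and 16 of 23 members. ACGTG, the core of sites of hypoxia-inducible factors, occurred in 19.6% of all promoters, in 4 of 23 members, in 0 of the 8 higher members and in 4 of the 8 not called. A match of letters is a description and not a bound site, motifs may overlap, and the absence of letters from this window says nothing of a factor.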

How the data were processed

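The authors deposited expected counts per gene from RSEM, with Trimmomatic, STAR and the GRCm38 build named in the submitters' processing notes, without versions. Per the labels' protocols, total RNA was used for stranded mRNA libraries. A read that matches more than 1 gene is split by estimation, which makes values of single globin copies uncertain. Groups were taken from the titles. The labels name no separate cage or batch, so p-values measure the spread between these libraries.

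Expected counts were rounded. The filterByExpr step of edgeR (minimum count 10) left 16638 of 54532 genes. TMM factors and the robust quasi-likelihood test of edgeR 4.0.16 (R 4.3.3) were applied in 1 fit of the 4 groups over all 22 libraries. Tests were two-sided. The Benjamini-Hochberg adjustment ran over the whole set of genes tested, and calls were made at 0.05. The SE of a log2 fold change comes from the F statistic (change over the root of F), and its median over all genes was 0.11 for each comparison of 2 groups. Library totals ran from 11509007 to 15744193 counts. The fits were tested on simulated counts. No pair of libraries in a group was alike to within counting noise. Exon lengths and coordinates come from GENCODE M21 (GRCm38), which held all 30 members found.

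The members and lists were chosen with earlier results of these data known, so no list was given a p-value. All members are named whatever their values, and of other lists the genes that passed or up to 4 with the smallest p, with a few others of known role chosen after their values were seen. Values of some genes on these lists are not reported here. Alternatives were DESeq2 1.42.0, limma-voom 3.58.1, RLE factors, library totals, other low-count filters, haemoglobin genes left out of scaling, globin copies summed, an added 1.5-fold threshold, fits of the compared groups only, the label alternatives and each library left out in turn. Figures were drawn with matplotlib 3.10.9.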

Additional observations from a re-analysis of the deposited data

Results flagged for a closer look

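In 6 of 104 sets of values (each tested member in each group, and summed measures), 1 library lay far from the others of its group. The rule used flags about 1 in 20 groups by chance. Replicate 2 of normoxia with ABT-263 was high for Ank1 (26.5 CPM against 9.37 to 11.5 in the others) and Sptb (12.5 CPM against 4.90 to 6.42), the library with skeletal muscle transcripts. Replicate 5 of hypoxia with ABT-263 was high for Hba-a2 (1310 CPM against 843 to 975). Replicate 1 of hypoxia with vehicle was low for Slc4a1 (5.46 CPM against 10.3 to 11.8), and its title and treatment tag differ. Replicate 3 of normoxia with vehicle was high for Ermap (0.857 CPM against 0.265 to 0.375) and for Slc25a37 (82.3 CPM against 61.9 to 66.1). No cause of these values was tested.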

How the results depend on the processing

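The 23 called member values were recomputed 529 times in all, each under the alternatives that bear on it, and kept their direction and an adjusted p under 0.05 each time. The highest adjusted p among these was 0.0452, for Alad in hypoxia with ABT-263. The number of members called for hypoxia ran from 10 to 15 with ABT-263 (13 to 14 with 1 library left out) and from 8 to 11 with vehicle (10 to 11 with 1 library left out). The low counts came from the added 1.5-fold threshold (10 with ABT-263, 9 with vehicle) and from summing the globin copies, which leaves fewer genes to count (8 with vehicle). For ABT-263 in hypoxia, in normoxia and averaged, no alternative called a member. For the interaction, DESeq2 called 1 member, Car2, where edgeR called 0. The cause was not tested. With 1 library left out, the mean globin share ran from 1.02% to 1.16% in hypoxia with ABT-263, 1.12% to 1.19% in hypoxia with vehicle, 0.429% to 0.500% in normoxia with ABT-263 and 0.451% to 0.491% in normoxia with vehicle. No paired analysis was possible because the titles carry no replicate number that groups share. Depth limited the 8 members with at most 11 counts in a library, which the main test left out.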
